A study of Mus musculus with 20 samples.

Results

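Acute-phase genes encode secreted proteins and enzymes whose levels change with inflammation, and 10 of them were followed here in mouse brain: Lcn2, Saa3, Serpina3n, Serpina3f, Serpina3g, Lrg1, Ptx3, Cp, Hp and Steap4. They were taken by symbol, and all 10 were found among the 55487 genes of the prefrontal cortex count table and among the 57180 genes of the hippocampal one. All mice were wild-type C57/BL6, an inbred laboratory strain, aged 2 to 6 months. Prefrontal cortex came from males given 5 mg/kg lipopolysaccharide (LPS), a bacterial outer membrane component that elicits systemic inflammation, into the peritoneum (n = 4) or 0.9% saline (n = 4). Hippocampus came from 6 mice that received nicotine at 0.2 mg/kg and 6 that received 0.9% saline, for which sex and route are not given in the labels. Tissue was dissected 24 hours after treatment in both experiments, and no group carries an allele other than wild type.

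In the classical acute-phase response, the cytokines IL-6, IL-1 and TNF act on hepatocytes through the transcription factors STAT3, C/EBP and NF-kB, and secreted proteins of these genes bind iron, haemoglobin, lipids or proteases. Several of the same genes are also transcribed in the brain, in astrocytes, endothelial cells or choroid plexus. Serpina3n in particular is widely used as a marker of reactive astrocytes, and Lcn2 as a marker of both reactive astrocytes and inflamed brain endothelium.

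The bases upstream of the start sites are shown for 7 members because most members rose after LPS and because acute-phase genes are classical targets of these 3 factor families. RefSeq start sites of build GRCm38.p6 were at hand for 9 of the 10 members, and 250 upstream bases were searched on both strands for TTCNNNGAA (STAT), GGG and CC with 5 bases of any kind between them (NF-kB type) and TTGCNNAA (C/EBP type). Capitals mark the matches, some of which overlap each other, and each sequence runs 5′ to 3′ on the gene's own strand.
Serpina3f, chr12:104214294-104214543, plus strand: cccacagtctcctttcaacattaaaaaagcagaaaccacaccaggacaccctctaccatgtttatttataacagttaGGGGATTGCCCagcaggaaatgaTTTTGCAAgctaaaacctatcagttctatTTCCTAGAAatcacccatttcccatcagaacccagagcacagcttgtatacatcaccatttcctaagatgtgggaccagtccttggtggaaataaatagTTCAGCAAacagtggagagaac
Serpina3g, chr12:104235897-104236146, plus strand: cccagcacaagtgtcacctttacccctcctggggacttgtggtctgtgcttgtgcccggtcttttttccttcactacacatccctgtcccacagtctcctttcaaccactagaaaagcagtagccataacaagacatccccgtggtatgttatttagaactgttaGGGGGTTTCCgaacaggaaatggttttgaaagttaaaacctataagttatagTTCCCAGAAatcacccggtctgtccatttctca
Serpina3n, chr12:104406458-104406707, plus strand: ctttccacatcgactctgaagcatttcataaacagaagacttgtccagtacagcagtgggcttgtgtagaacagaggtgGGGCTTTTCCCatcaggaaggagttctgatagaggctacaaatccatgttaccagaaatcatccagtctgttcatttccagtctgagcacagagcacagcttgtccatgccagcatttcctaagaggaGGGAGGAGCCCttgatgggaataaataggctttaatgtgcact
Steap4, chr5:7960222-7960471, plus strand: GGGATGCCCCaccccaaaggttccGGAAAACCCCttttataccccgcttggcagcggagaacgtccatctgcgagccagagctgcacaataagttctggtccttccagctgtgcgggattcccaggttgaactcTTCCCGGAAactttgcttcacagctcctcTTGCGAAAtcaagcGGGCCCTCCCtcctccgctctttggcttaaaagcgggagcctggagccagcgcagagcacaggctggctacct
Lcn2, chr2:32387740-32387989, minus strand: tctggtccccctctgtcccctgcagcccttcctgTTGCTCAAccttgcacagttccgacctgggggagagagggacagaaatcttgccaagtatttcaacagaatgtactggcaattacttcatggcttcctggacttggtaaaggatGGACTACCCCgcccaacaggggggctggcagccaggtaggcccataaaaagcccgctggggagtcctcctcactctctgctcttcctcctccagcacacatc
Saa3, chr7:46715677-46715926, minus strand: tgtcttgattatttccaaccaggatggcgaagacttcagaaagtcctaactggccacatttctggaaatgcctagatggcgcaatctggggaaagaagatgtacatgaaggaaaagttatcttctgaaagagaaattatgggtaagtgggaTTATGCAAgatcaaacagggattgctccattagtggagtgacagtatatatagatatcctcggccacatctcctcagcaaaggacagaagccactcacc
Lrg1, chr17:56121947-56122196, minus strand: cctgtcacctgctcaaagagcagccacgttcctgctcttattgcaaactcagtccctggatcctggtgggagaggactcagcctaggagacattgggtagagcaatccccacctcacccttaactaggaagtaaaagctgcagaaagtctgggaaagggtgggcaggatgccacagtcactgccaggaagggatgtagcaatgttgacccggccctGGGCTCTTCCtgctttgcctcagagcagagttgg

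The STAT letters were present upstream of Serpina3f, Serpina3g and Steap4, against 7.02% of 32851 mouse promoters of the same length. In Serpina3f the match TTCCTAGAA began 121 bases before the start site, in Serpina3g TTCCCAGAA began 33 bases before it, and in Steap4 TTCCCGGAA began 116 bases before it. Serpina3f and Serpina3g are of the same gene cluster and their upstream bases are closely similar around the match. Their matches may therefore not be separate cases. C/EBP type letters, found in 9.56% of all promoters, were upstream of Serpina3f, Steap4, Lcn2, Saa3, Ptx3 and the downstream start site of Cp. NF-kB type letters are loose and occurred in 45.8% of all promoters, including those of Lcn2, Lrg1, Serpina3n, Serpina3f, Serpina3g, Steap4 and the downstream start site of Cp. A match is a run of letters and not evidence of binding.

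The sequencing totals were 36371084 to 46106526 gene counts per library in cortex and 51969343 to 68196280 in hippocampus, and levels are given in CPM, the counts of a gene per 1000000 counts of its library after TMM scaling. In 4 of the 8 cortical records, libraries 2, 4, 6 and 8, the title and treatment field name the opposite treatment to the column name of the count table. Groups follow the column name, so that saline is libraries 1, 3, 6 and 8 and LPS is libraries 2, 4, 5 and 7. Under that grouping saline Lcn2 was 0.676 to 13.5 CPM and LPS Lcn2 254 to 367. Grouped by title, Lcn2 ran from 0.916 to 367 CPM in 1 group and from 0.676 to 287 CPM in the other. Lcn2 is a member under study, so its values cannot decide which label is right. Cortical library 8 (saline) stood apart in several members, and values without it are given where it matters. Summed cortex markers were 1745 to 2433 CPM in the cortical libraries, and summed hippocampus markers were 720 to 1104.5 CPM in hippocampus against 277 to 558 in cortex. Striatum markers summed to 363 to 1959 CPM in the cortical libraries against 203 to 247 in the hippocampal ones, and with them as a covariate the same 9 members were called in cortex. The labels do not say whether libraries of a group came from separate animals beyond calling them biological replicates, so each p-value reflects library-to-library spread, which may be technical.

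After LPS, acute-phase transcripts rose across the cortical libraries. Together the 10 genes made up 36.1 to 67.6 CPM in saline and 593 to 841 CPM in LPS libraries. In 9 of the 10, of which 8 were among the 17760 genes tested, every LPS library was above every saline library, and Ptx3 was the exception. The same was true of 19.2% of the genes tested. The edgeR quasi-likelihood test with Benjamini-Hochberg adjustment over all genes called 9 members higher and 0 lower, with a median log2 fold change of 3.37 over those fitted. Over all genes 21.5% were called higher and 19.7% lower, 41.2% in all, and the median log2 fold change was 0.01. Only Lcn2, Serpina3n, Lrg1, Cp and Steap4 reached the expression minimum of 0.245 CPM in every saline library. Saa3, Serpina3f, Hp and Ptx3 entered the fit through their LPS libraries, so the count over fitted members is a description. Serpina3g was under the filter and is given apart. The tissue is a mixture of cells, so more cells of a type and more RNA per cell cannot be told apart in any of these values.

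**Figure D1:**
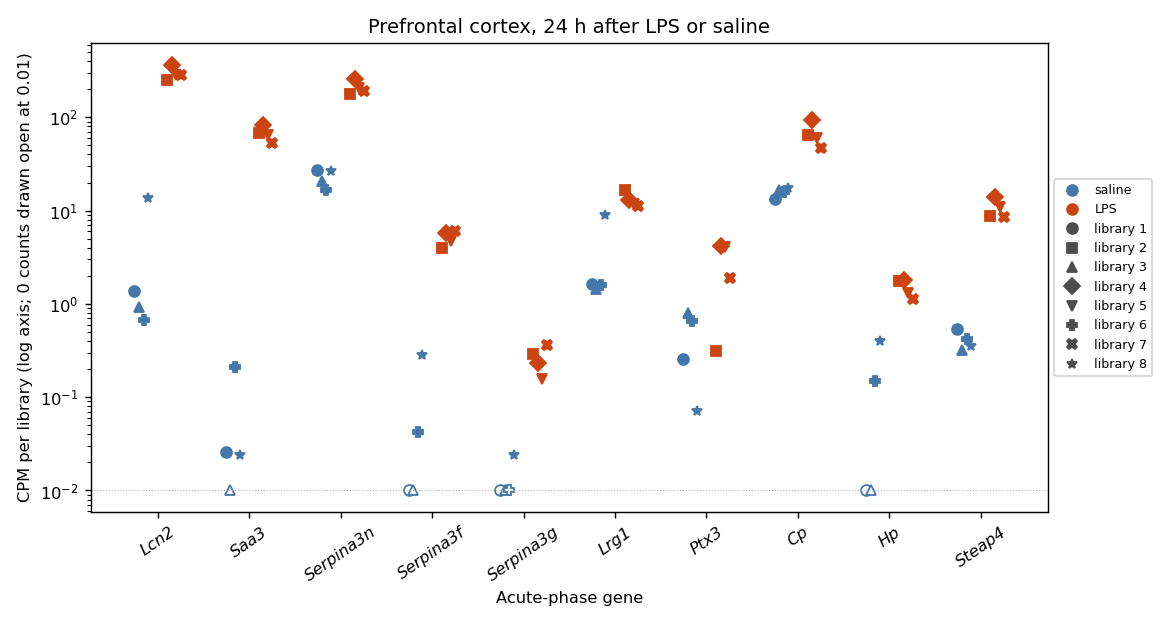
CPM of each acute-phase gene in every prefrontal cortex library on a log axis, with saline in blue, LPS in orange, 1 marker shape per library and libraries with 0 counts drawn open at 0.01. The LPS points lie above all saline points for every gene but Ptx3, and saline library 8 (star) is the highest saline point for Lcn2, at 13.5 CPM, and for Lrg1, at 8.89 CPM.

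The members that handle iron and haem were among those that rose. Lcn2 (chr2:32384633-32388252, GENCODE vM21, build GRCm38) encodes lipocalin 2, which binds iron-loaded bacterial siderophores. Its level was 1.39, 0.916, 0.676 and 13.5 CPM in saline libraries 1, 3, 6 and 8 and 254, 367, 287 and 285 CPM in LPS libraries 2, 4, 5 and 7. The lowest LPS library was 18.8 times the highest saline library, and library 8 stood above the other saline libraries. The log2 fold change was 6.17 (SE 0.76, adjusted p = 0.000122 by edgeR's quasi-likelihood test), the 12th highest of 17760 genes. Without saline library 8 it was 8.24, with adjusted p = 3.05e-08 by edgeR.

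Steap4 (chr5:7960457-7982213), a metalloreductase that reduces iron and copper, was low in saline and rose in every LPS library. Saline libraries held 0.539, 0.323, 0.423 and 0.356 CPM, and LPS libraries held 8.66, 14.1, 11.0 and 8.57 CPM, again in the order 1, 3, 6, 8 and 2, 4, 5, 7. The groups were separated by 15.9 times between the nearest libraries, and saline library 8 lay inside the saline range. Its log2 fold change was 4.68 (SE 0.24, adjusted p = 3.10e-07 by edgeR).

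Cp (chr3:19957054-20009145) encodes ceruloplasmin, the copper ferroxidase that works with the iron exporter ferroportin. It was at 13.4, 16.5, 15.7 and 17.3 CPM in saline and 64.4, 94.7, 60.6 and 47.1 CPM in LPS libraries. All saline libraries lay close together, and the coefficient of variation was 10.7% in saline and 30.1% in LPS. Its log2 fold change was 2.08 (SE 0.18, adjusted p = 1.26e-05 by edgeR). Cp shares 108 exon bases with Hps3 on the opposite strand, and the strand setting of the counting is not given in the sources used here.

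Hp (chr8:109575128-109579172) encodes haptoglobin, which captures free haemoglobin. Saline libraries 1 and 3 had 0 counts, saline 6 and 8 were at 0.148 and 0.404 CPM, and the LPS libraries were at 1.78, 1.78, 1.32 and 1.13 CPM. The level stayed low after LPS, but no LPS library overlapped the saline range. The log2 fold change was 3.37 (SE 0.69, adjusted p = 0.00259 by edgeR), and 4.68 without saline library 8. Summed erythrocyte markers, such as the globin Hbb-bs, ran from 10.6 to 27.2 CPM without LPS and from 2.85 to 9.54 CPM with it. By edgeR 3 of the 5 fell, as did 19.7% of all genes tested.

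Among the pattern recognition and lipid-binding members, Saa3 had the largest fold change of the 10. Saa3 (chr7:46711998-46715700) encodes a serum amyloid A made mainly outside the liver. Its saline libraries held 1, 0, 10 and 1 counts, which is 0.0256, 0, 0.211 and 0.0238 CPM, and its LPS libraries were at 67.1, 83.6, 63.8 and 52.9 CPM. Per kilobase of exon the LPS libraries of Saa3 (20.3 to 32.1 CPM) were above the saline libraries of Serpina3n (8.06 to 13.2 CPM), so a transcript near 0 in saline passed the most abundant member's saline level. The fitted log2 fold change was 9.80 (SE 0.36, adjusted p = 5.27e-08 by edgeR), the third highest of all genes and the second smallest p. Most of the saline counts were in library 6, and without it the ratio rested on 2 saline counts (3974-fold, 95% interval 1100 to 32815, which covers counting error alone because no molecular identifiers were used).

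Ptx3 (chr3:66219910-66225805) encodes pentraxin 3, a soluble pattern recognition molecule that binds complement and Fc gamma receptors. Saline libraries were at 0.256, 0.808, 0.655 and 0.0713 CPM, and LPS libraries were at 0.312, 4.20, 4.06 and 1.89 CPM. LPS library 2 lay inside the saline range while the other 3 lay above it, which makes Ptx3 the only member whose groups overlapped. The log2 fold change was 2.54 (SE 0.72, adjusted p = 0.0153 by edgeR). This call was lost with limma-voom (adjusted p = 0.0753), with the replicate number as a block (edgeR adjusted p = 0.104) and without LPS library 4 (edgeR adjusted p = 0.0505).

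The SERPINA3 members are serine protease inhibitors of 1 gene cluster on chromosome 12. Serpina3n (chr12:104406729-104414329) was well expressed without LPS, at 27.2, 20.8, 16.6 and 26.7 CPM in saline, and reached 176, 257, 204 and 190 CPM after LPS. Both groups were tight, and the nearest libraries were 6.47 times apart. By edgeR its log2 fold change was 3.18 (SE 0.17, adjusted p = 3.55e-07 by edgeR).

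Serpina3f (chr12:104214544-104221129) had 0 counts in saline 1 and 3 and was at 0.0423 and 0.285 CPM in saline 6 and 8. After LPS it was at 3.93, 5.72, 4.76 and 6.01 CPM, so no LPS library came near the saline range. This gave a log2 fold change of 5.87 (SE 0.58, adjusted p = 3.08e-05 by edgeR). Of its 14 saline counts 12 were in library 8, and without that library the ratio over 2 saline counts was 315-fold (95% interval 86.9 to 2605, counting error only).

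Serpina3g (chr12:104236245-104241939) was the scarcest member, with 0, 0, 0 and 1 counts in saline and 12, 10, 6 and 14 counts in LPS libraries. That is 0 to 0.0238 CPM against 0.155 to 0.358 CPM, with no overlap, as in 3.02% of the 13161 genes under the filter. The ratio was 42.9-fold over 1 saline count (95% interval 7.29 to 1734), and without saline library 8 it was at least 10.7-fold against 3 counts over the group. An exact 2-sided permutation test gave p = 0.0286, the smallest that 4 against 4 libraries allow, and 0.631 after adjustment over those 13161 genes, of which 4.53% had an unadjusted exact p under 0.05. When no gene was filtered out, edgeR gave a log2 fold change of 4.84 (adjusted p = 0.000492).

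Close copies limit what can be said of single cluster genes. Of the 50-base stretches of the Serpina3g transcripts 15.5% also occur in other genes, most of them in Serpina3h, and the shares were 10.6% for Serpina3f and 6.90% for Serpina3n. Saa3 shared 4.15% and Cp 0.618%, whereas Lcn2, Lrg1, Ptx3, Hp and Steap4 shared 0. Of the 8 other Serpina3 genes looked at, 2 passed the filter, and both did so through their LPS libraries, where they were high, so their direction was fixed by the filter. They were Serpina3i, with a log2 fold change of 3.93 (adjusted p = 0.00227 by edgeR) and 82 counts against 5, and Serpina3m with 85 counts against 2. The Serpina3m ratio was 43.4-fold (95% interval 11.7 to 364, counting error only), and without saline library 8, which held both saline counts, at least 21.6-fold against 3 counts over the group. Serpina3a, Serpina3j and Serpina3k had 0 counts in all 8 cortical libraries.

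Lrg1 (chr17:56119678-56122001) encodes a leucine-rich glycoprotein that modulates TGF-beta signalling in endothelium. Its saline libraries were at 1.62, 1.45, 1.59 and 8.89 CPM and its LPS libraries at 16.8, 13.1, 11.7 and 11.1 CPM. Saline library 8 came within 1.25 times of the lowest LPS library, while the other 3 saline libraries lay close together. For Lrg1 the log2 fold change was 1.96 (SE 0.51, adjusted p = 0.00953 by edgeR), and 3.08 without saline library 8 (adjusted p = 3.38e-06 by edgeR).

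When the fit was restricted to the 4 cortical libraries whose title and column name agree (saline 1 and 3, LPS 5 and 7), edgeR again called the same 9 members higher. The log2 fold changes were 7.94 for Lcn2, 3.03 for Serpina3n, 2.88 for Lrg1, 2.47 for Ptx3, 1.83 for Cp and 4.48 for Steap4. Saa3 then rested on 1 saline count (4441-fold, 95% interval 797 to 175435). Both saline libraries had 0 counts of Serpina3f, Serpina3g and Hp, which were at least 137-fold, 6.53-fold and 31.0-fold higher in LPS, against 3 counts over the group.

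**Figure D2:**
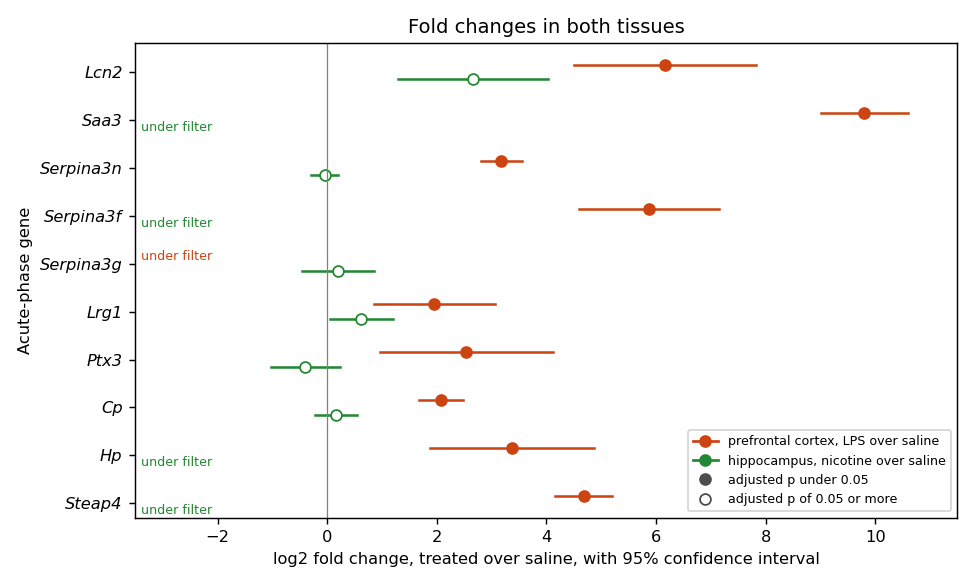
Log2 fold change of treated over saline libraries with 95% confidence intervals for each acute-phase gene, in prefrontal cortex after LPS (orange, 4 against 4) and hippocampus after nicotine (green, 6 against 6); filled points have an adjusted p under 0.05. All 9 fitted genes are filled in cortex, from 1.96 for Lrg1 to 9.80 for Saa3, and none of the 6 fitted in hippocampus is, with Lcn2 at 2.66 farthest from 0.

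Saline library 8 was high in some members and not in others. It was the highest of the 4 saline libraries for Lcn2, Serpina3f, Serpina3g, Lrg1, Cp and Hp, and not for Saa3, Serpina3n, Ptx3 or Steap4. Among all genes tested, 21.2% had their highest saline value in library 8, and 13 of the 21 cytokine receptor and signalling genes did. Examples named after their values were seen are the oncostatin M receptor Osmr, at 7.46 CPM in library 8 and 3.23 to 3.57 in the other saline libraries, and the IL-1 receptor Il1r1, at 6.96 against 1.98 to 3.15. The transcription factor Cebpd, at 9.91 CPM, was also above the other saline libraries (4.47 to 5.35 CPM). All 5 erythrocyte markers were highest in library 8 too. Tnf and Il6 transcripts had 0 counts in it, as they did in saline libraries 3 and 6. The part of any of these genes in the raised members was not tested.

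The cytokines that induce acute-phase genes, and their receptors and signalling genes, changed in part. Of 12 inducing cytokines 6 passed the filter, and 3 rose and 0 fell by edgeR. Tnf, Il1b, Osm and Il11 did not reach the expression minimum in every saline library and entered through their LPS libraries. The count over fitted cytokines is therefore a description. Lif (adjusted p = 0.0519), Osm (adjusted p = 0.109) and Il11 (adjusted p = 0.760) did not pass by edgeR. The Il1a log2 fold change was 2.90 (adjusted p = 8.04e-06 by edgeR). Tnf had 1 saline count and 489 LPS counts (499-fold, 95% interval 89.2 to 19767), and Il6, under the filter, had 2 and 85 (43.4-fold, 11.7 to 364). Il6 was at 0.0720 CPM in LPS library 2 and 0.586 to 0.776 CPM in the other LPS libraries, so the LPS library with the lowest Ptx3 was also the LPS library lowest in Il6. Of 21 receptor and signalling genes 16 rose and 1 fell, with a median log2 fold change of 1.24. Over all genes tested 21.5% rose and 19.7% fell. The receptors Il6st, Lifr and Cntfr were among those that did not pass (adjusted p = 0.382, 0.238 and 0.398 by edgeR). The smallest p among the rises belonged to the transcription factor Cebpa, at 9.52 ± 0.52 CPM in saline and 24.3 ± 2.13 in LPS (SD, n = 4), and to Tnfrsf1a, a TNF receptor, at 13.7 ± 1.29 and 32.3 ± 3.48 CPM. The log2 fold changes were 1.35 (adjusted p = 3.53e-06 by edgeR) and 1.24 (adjusted p = 1.30e-05 by edgeR), and the kinase Jak2 fell by 0.22 on the same scale (adjusted p = 0.0420 by edgeR). The same LPS library 2 was the lowest LPS library for Stat3, at 94.8 CPM against 160 to 172, and for Socs3, at 11.8 against 28.2 to 31.0, 2 genes named after their values were seen. Ptx3 also varied with tissue markers over the 8 cortical libraries after removal of group means. Pearson's r was 0.92 with astrocyte, 0.91 with choroid plexus and -0.86 with cortex markers. The part of any of these in the low Ptx3 of library 2 was not tested.

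The receptors and partners of the members changed unevenly. Of 21 such genes 17 were fitted, 8 rose and 1 fell, against 21.5% and 19.7% of all genes tested. Any of them below the expression minimum in saline could enter the fit only through its LPS libraries, where it was high. The count is therefore a description. For Lcn2, the receptor Slc22a17 was abundant and did not pass (542 ± 36.7 CPM in saline, 593 ± 52.1 in LPS, log2 fold change 0.13, 95% interval -0.04 to 0.30). Mc4r, the melanocortin receptor to which LCN2 binds, rose by 1.63 on the log2 scale (adjusted p = 0.000174 by edgeR), and Mmp9, the protease that forms a complex with LCN2, rose by 1.56 (adjusted p = 0.000399 by edgeR). Of the receptors that serum amyloid A proteins engage, Tlr2 was at 1.22 ± 0.12 CPM in saline and 16.2 ± 2.72 in LPS, a log2 fold change of 3.73 (adjusted p = 1.90e-07 by edgeR) and the fourth smallest p of all genes. Fpr1, a formyl peptide receptor, had a log2 fold change of 5.43 (adjusted p = 5.21e-05 by edgeR). Tlr4 (log2 fold change 0.15, 95% interval -0.21 to 0.51) and Scarb1 (0.13, -0.13 to 0.40) did not pass, and Fpr2 had 0 counts in all cortical libraries.

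For the iron and haem members, ferroportin Slc40a1, the exporter whose iron Cp oxidises, fell from 5.56 ± 0.90 to 1.62 ± 0.35 CPM (log2 fold change -1.77, adjusted p = 6.51e-05 by edgeR) while Cp rose. Hmox1, the haem oxygenase downstream of haptoglobin uptake, rose by 1.07 on the log2 scale (adjusted p = 0.000471 by edgeR), and the haptoglobin receptor Cd163 did not pass (log2 fold change 0.50, 95% interval -0.32 to 1.32). The Fc gamma receptors Fcgr3 and Fcgr2b, to which pentraxins bind, had log2 fold changes of 1.12 and 1.15 (adjusted p = 2.46e-05 and 0.00143 by edgeR). For Lrg1, neither Eng (log2 fold change 0.17, 95% interval -0.11 to 0.44) nor the receptor Acvrl1 (-0.40, -0.90 to 0.11) passed. Elane and Ctsg, neutrophil proteases of the kind that SERPINA3 inhibits, were under the filter, with 4 and 3 counts over the saline and 2 and 3 over the LPS libraries.

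Of 26 further acute-phase genes 13 were fitted, and 10 of those rose and 0 fell by edgeR, with a median log2 fold change of 2.30. Over all genes tested 21.5% rose and 19.7% fell. Genes below the expression minimum in saline could enter the fit only through their LPS libraries, so this count is a description. The metallothionein Mt1 (log2 fold change 1.91, adjusted p = 1.12e-06 by edgeR) and the LPS co-receptor Cd14 (2.95, adjusted p = 4.54e-06 by edgeR) had the smallest p. Orm3 and Apcs had 0 counts in all 8 cortical libraries, and Crp had 13 counts over the saline libraries and 2 over the LPS libraries. The liver transcripts Ahsg, Serpina1a and Serpina6 were also at 0 in every cortical library, and Alb was at 0 to 0.143 CPM. Of the 4 fitted genes of this list, which holds proteins that fall in the acute phase and other liver products, 1 rose and 1 fell. Trf, the iron carrier transferrin, was lower, at 212 ± 21.7 CPM in saline and 128 ± 25.9 in LPS (log2 fold change -0.73, adjusted p = 0.00103 by edgeR). Apoa1, an apolipoprotein, was higher from a low level (0.175 ± 0.110 and 0.531 ± 0.184 CPM, log2 fold change 1.59, adjusted p = 0.0195 by edgeR). Apoa1 entered the fit through its LPS libraries, so its direction was fixed by the filter. Cyp2e1, a cytochrome P450 named after its values were seen, had 181 counts over the saline and 7 over the LPS libraries. It was under the filter and so did not reach 0.245 CPM in every saline library. Its saline counts were therefore unevenly spread, and the totals do not show a fall across the group.

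Markers of other cell types gave mixed calls in cortex, where 21.5% of all genes tested rose and 19.7% fell. Counts of calls in such short lists can lie near these shares. Summed neutrophil and monocyte markers, of which 3 of 12 were fitted and 2 rose, were 1.69 to 5.43 CPM in saline and 4.79 to 9.88 in LPS libraries. Ly6g had 0 counts in saline and 1 in LPS. The 2 markers that rose were S100a8, averaging 0.701 CPM in saline and 2.52 in LPS, and Ngp, at 0.323 (SD 0.304) and 2.05 (SD 0.43). Ngp did not reach the expression minimum in every saline library. It entered the fit through its LPS libraries, so its direction was fixed by the filter. Neutrophils also express Lcn2, and their part in its level was not tested. Astrocyte markers gave 2 rises and 4 falls of 8, with Gfap at a log2 fold change of 1.33 (adjusted p = 7.32e-06 by edgeR) and Gja1 at -0.52 (adjusted p = 0.000149 by edgeR), and their sum ranged from 4068 to 4317 CPM in saline and from 3908 to 4793 in LPS. Endothelial markers gave 3 rises and 2 falls of 8 and summed to 227 to 283 CPM in saline and 282 to 301 in LPS. By edgeR the junction genes Cdh5 (log2 fold change 1.34, adjusted p = 0.000256) and Esam (0.75, adjusted p = 0.00110) were higher, and Tek (-1.44, adjusted p = 0.00195) and Ocln (-0.66, adjusted p = 0.0166) were lower.

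Microglia markers gave 1 rise and 3 falls of 7, beside 41.2% of all genes tested called in either direction. Their median log2 fold change was -0.51, and their sums were 360.1 to 394 CPM in saline and 266 to 390.3 in LPS. P2ry12, a nucleotide receptor of homeostatic microglia, was at 31.0 ± 5.03 CPM in saline and 5.67 ± 0.51 in LPS (log2 fold change -2.45, adjusted p = 3.58e-07 by edgeR). The complement gene C1qa had a log2 fold change of 0.55 (adjusted p = 0.00708 by edgeR). Meningeal and fibroblast markers gave 2 rises and 3 falls of 7 fitted, with a median of -0.57 and sums of 85.2 to 135 CPM in saline and 97.1 to 159.9 in LPS. By edgeR Pdgfra (log2 fold change 0.47, adjusted p = 0.000990) and Dcn (1.22, adjusted p = 0.00753) were higher, and Ogn (-2.13, adjusted p = 0.000640) and Slc6a13 (-1.30, adjusted p = 0.00134) were lower. Mural cell markers gave 0 calls of 7 by edgeR, with 1 unadjusted p under 0.05. Choroid plexus markers summed to 17.1 to 22.1 and 15.6 to 30.0 CPM, with 1 rise of 8. That was Kcne2, at a mean of 0.0188 CPM in saline and 0.807 in LPS, which entered the fit through its LPS libraries. The part of these cells in the member values was not tested.

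Within groups the members did not vary as 1 block. After removal of group means, Pearson's r of log2 CPM over the 8 cortical libraries was 0.94 between Lcn2 and Lrg1, 0.86 between Lcn2 and Serpina3f, and 0.89 between Serpina3f and Hp. Without saline library 8 they were -0.10, -0.42 and 0.71, so the first and second rested on that library, whereas Serpina3f and Hp still varied together. Lcn2 and Serpina3n, in contrast, had r = 0.61 with all libraries and 0.98 without library 8 (n = 7). The libraries share depth and dissection, and no test was made. By the same measure the genes most like Lcn2 were Nkpd1 (0.98), Igfbp7 (0.97), Galnt15 (0.96), Acer2 (0.95) and Srpk3 (0.94), and those most like Lrg1 were Arrdc2 (0.98), Ide (0.98), Scel (0.97), Acer2 (0.96) and Mc4r (0.96). Acer2, an alkaline ceramidase, was in both sets. Without saline library 8 these 10 correlations were 0.52 to 0.83, with Acer2 at 0.59 for Lcn2 and 0.72 for Lrg1, so the closeness rested in part on that library. Serpina3n was nearest to Taf4b, L3mbtl1 and Chl1 (0.98, 0.98 and 0.96), followed by 4931415C17Rik (0.95) and Uvssa (0.94). Cp was nearest to Sclt1 and A130010J15Rik (0.97 each), then Ncapd3 (0.95), Abca5 (0.94) and Ncl (0.94).

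In hippocampus 24 hours after nicotine, no member was called. Their summed level was 55.6 to 70.5 CPM in saline and 51.6 to 74.6 in nicotine libraries, and 6 of the 10 passed the filter. By edgeR 0% of the 18873 genes tested were called at an adjusted p under 0.05, while 8.36% had an unadjusted p under 0.05. DESeq2 called 15 genes, none of them a member, and limma-voom called 0. Lcn2 and Lrg1 were among the 735 genes, 3.89% of those tested, that were higher at an unadjusted p under 0.05, and no fitted member was among the 4.46% that were lower. Lcn2 entered the fit through its nicotine libraries, so its place among these genes is a description. Groups did not overlap in 0 fitted members, against 0.387% of genes tested.

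**Figure D3:**
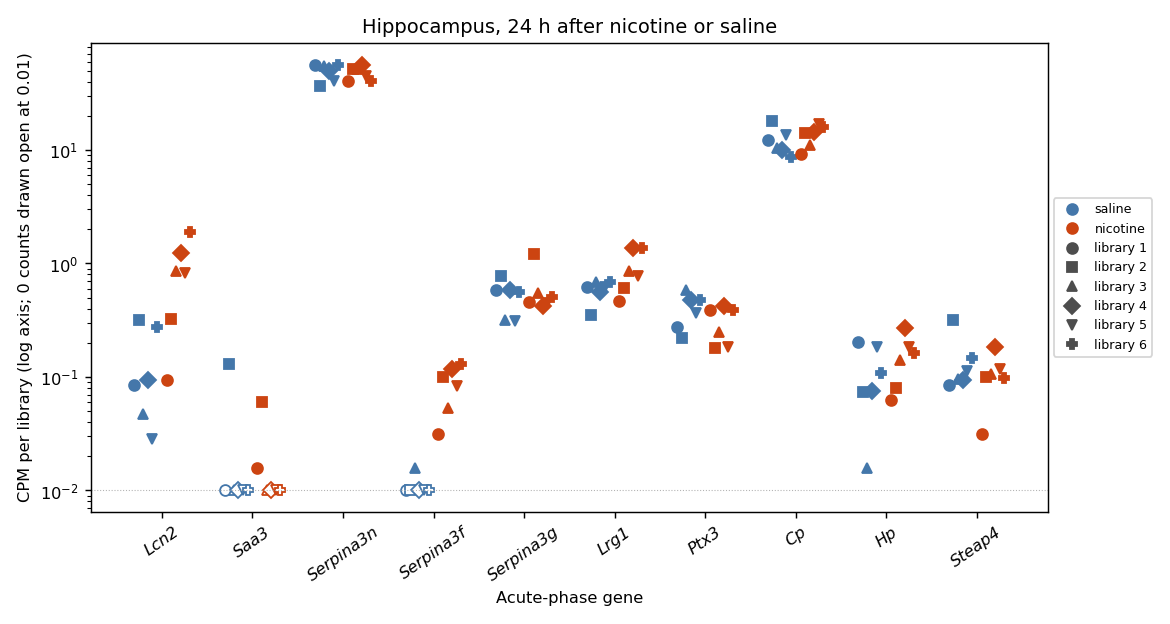
CPM of each acute-phase gene in every hippocampal library on a log axis, with saline in blue, nicotine in orange, 1 marker shape per library and 0 counts drawn open at 0.01. The groups overlap for every gene but Serpina3f, and nicotine libraries 3 to 6 lie above all saline libraries for Lcn2, at 0.816 CPM or more against at most 0.315.

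Lcn2 had the largest positive fold change of all 18873 hippocampal genes, from a very low level. Only 2 of the 6 saline libraries reached the expression minimum of 0.169 CPM, against 5 of the 6 nicotine libraries. Lcn2 thus entered the fit through its nicotine libraries, so its ranks are a description. The 6 saline libraries ranged from 0.0284 through a median of 0.0899 to 0.315 CPM, which is 2 to 17 counts. Nicotine libraries ranged from 0.0938 through a median of 0.840 to 1.89 CPM, or 6 to 117 counts. Nicotine libraries 1 and 2 lay within or just above the saline range, and the other 4 lay well above it. Its fitted log2 fold change was 2.66 (SE 0.64, 95% interval 1.30 to 4.02), with adjusted p = 0.555 by edgeR, and its p was the 19th smallest of all genes. Across the alternatives the adjusted p stayed between 0.210 and 0.862, so the difference did not hold against the number of genes tested. Even the highest nicotine library was below 2 CPM, whereas the lowest cortical LPS library was at 254 CPM. The experiments differ in tissue, agent and batch, so the 2 responses were not tested against each other.

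Serpina3f was the only member whose hippocampal groups did not overlap. It had 1 count in total in saline, in library 3, and 2, 5, 3, 7, 5 and 8 counts in nicotine libraries 1 to 6, or 0.0313 to 0.130 CPM. Every nicotine library thus held at least 1 count and 5 of 6 saline libraries held 0, which does not show absence. Nicotine library 1, at 0.0313 CPM, was under the 0.0469 CPM that 3 counts would give there. Of the 50-base stretches of Serpina3f 10.6% occur in other genes, most of them in Serpina3g, which had 180 saline and 204 nicotine counts. Whether reads were assigned to the wrong gene was not tested. The ratio was 30.2-fold (95% interval 5.02 to 1232, counting error only), and at least 8.27-fold against 3 counts over the group without saline library 3. The exact 2-sided permutation p was 0.00216, the smallest that 6 against 6 libraries allow, and 1 after adjustment over the 14331 genes under the filter. Of those, 0.0768% lay higher without overlap, and 2.28% had an unadjusted exact p under 0.05. With no filter edgeR gave a log2 fold change of 4.15 with adjusted p = 0.474, and the gene was not called.

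Lrg1 ranged from 0.352 through 0.620 to 0.692 CPM in hippocampal saline and from 0.469 through 0.824 to 1.38 in nicotine libraries. Its nicotine libraries 3 to 6 lay above all saline libraries, as for Lcn2. The log2 fold change was 0.63 (SE 0.27, 95% interval 0.05 to 1.20, adjusted p = 0.580 by edgeR). In the 8 libraries with less than 1000 CPM of Ttr, the choroid plexus transcript for transthyretin, it was 0.37.

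For the other fitted members every confidence interval spanned 0. Serpina3n was at 49.0 ± 8.60 CPM in saline and 47.6 ± 6.44 in nicotine (SD, n = 6), with a log2 fold change of -0.04 (95% interval -0.29 to 0.21), an interval that holds no change as large as the cortical one after LPS. Cp was at 12.2 ± 3.38 and 13.6 ± 2.97 CPM (log2 fold change 0.16, 95% interval -0.21 to 0.54). Ptx3 was at 0.399 ± 0.137 and 0.302 ± 0.111 CPM (log2 fold change -0.39, -1.03 to 0.24). Serpina3g, the scarcest member in cortex, was at 0.523 ± 0.179 and 0.599 ± 0.309 CPM (log2 fold change 0.19, -0.46 to 0.85), with nicotine library 2 at 1.22 CPM.

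Under the hippocampal filter, Hp had 40 counts in saline and 53 in nicotine libraries, and Steap4 had 49 and 37. Saa3 had 7 counts, all in saline library 2, against 4, of which 3 were in nicotine library 2. The exact 2-sided permutation p was 0.374 for Hp, 0.481 for Steap4 and 1 for Saa3, each 1 after adjustment. The inducing cytokines, receptors and other acute-phase proteins gave 0 edgeR calls in hippocampus. An unadjusted edgeR p under 0.05 was found for 0 of 3 fitted cytokines, 3 of 20 signalling genes, 2 of 17 receptors and partners, and 1 of 12 other acute-phase proteins. Over all genes tested the share was 8.36%. The neutrophil marker sum was 0.364 to 1.71 CPM in saline and 0.422 to 1.60 in nicotine libraries.

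Between hippocampal libraries Cp varied with meningeal, mural and choroid plexus transcripts. Its r with the mean log2 CPM of meningeal and fibroblast markers was 0.92, with mural cell markers 0.82 and with choroid plexus markers 0.59, over 12 libraries after removal of group means. Among the genes most like it were Gjb2 (0.95), Tfpi (0.94), Clec3b (0.93) and Islr (0.93). Saline libraries 2 and 5 and nicotine libraries 4 and 5 held over 1000 CPM of Ttr, and Cp was at 18.2, 13.5, 14.5 and 16.9 CPM there, against 8.74 to 15.9 in the other 8. Without those 4 libraries the Cp log2 fold change was 0.28, and with choroid plexus markers as a covariate it was 0.18 (adjusted p = 0.459 and 0.715 by edgeR). Lcn2 was most like Tgm2 (0.86), 4930473A02Rik (0.83), Ubxn2a (0.82), Clrn1 (0.81) and Emp1 (0.80), and Lcn2 and Steap4 had r = 0.76. Serpina3n was nearest to Ajap1 (0.96), Lpl (0.95), Cpne4 (0.94), Wscd2 (0.94) and Galnt16 (0.94), and Lrg1 to St8sia3os (0.85), Ipo7 (0.84), Arcn1 (0.82), Trmt12 (0.81) and Prmt8 (0.81).

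Levels were compared between members per kilobase of exon, counting all annotated exons of a gene together. That was 2064 bases for Serpina3n, 2623 for Lcn2, 2606 for Saa3 and 9566 for Cp. A gene whose main transcript is shorter than this has an understated level, so the order of members depends on the divisor. In saline Serpina3n was first in both tissues, at 11.1 ± 2.44 CPM per kilobase in cortex (SD, n = 4) and 23.7 ± 4.17 in hippocampus (n = 6), and its range did not meet that of the next gene in either. In cortical saline Lrg1 (2.40 ± 2.60), Cp (1.65 ± 0.18) and Lcn2 (1.57 ± 2.39) followed and overlapped each other, and Serpina3g was last. Without saline library 8 the order was Cp (1.59 ± 0.17), Lrg1 (1.10 ± 0.061) and Lcn2 (0.378 ± 0.137, n = 3), whose ranges did not meet. In hippocampal saline Cp was second (1.27 ± 0.35) and Lrg1 the third (0.418 ± 0.089), with ranges apart, while Lcn2 (0.0536 ± 0.0465) was seventh and overlapped Hp and Steap4. After LPS Lcn2 (114 ± 18.3) and Serpina3n (100.2 ± 17.2) led with overlapping ranges, so Lcn2 was no longer below Serpina3n. Saa3 was the third at 25.7 ± 4.87, apart from both neighbours, and the order went on with Lrg1 (9.37 ± 1.82), Cp (6.97 ± 2.10), Steap4 (3.36 ± 0.83), Serpina3f (2.23 ± 0.41), Ptx3 (0.976 ± 0.695), Hp (0.935 ± 0.206) and Serpina3g (0.123 ± 0.041). Lrg1 and Cp overlapped, as did Ptx3 and Hp. After nicotine the order began with Serpina3n (23.1 ± 3.12), Cp (1.42 ± 0.31), Lrg1 (0.646 ± 0.271) and Lcn2 (0.332 ± 0.247), and from Cp to Serpina3g each neighbour overlapped the next. The 2 saline groups were counted in separate tables and differ in tissue and batch, which cannot be told apart, so their levels stand side by side only.

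**Figure D4:**
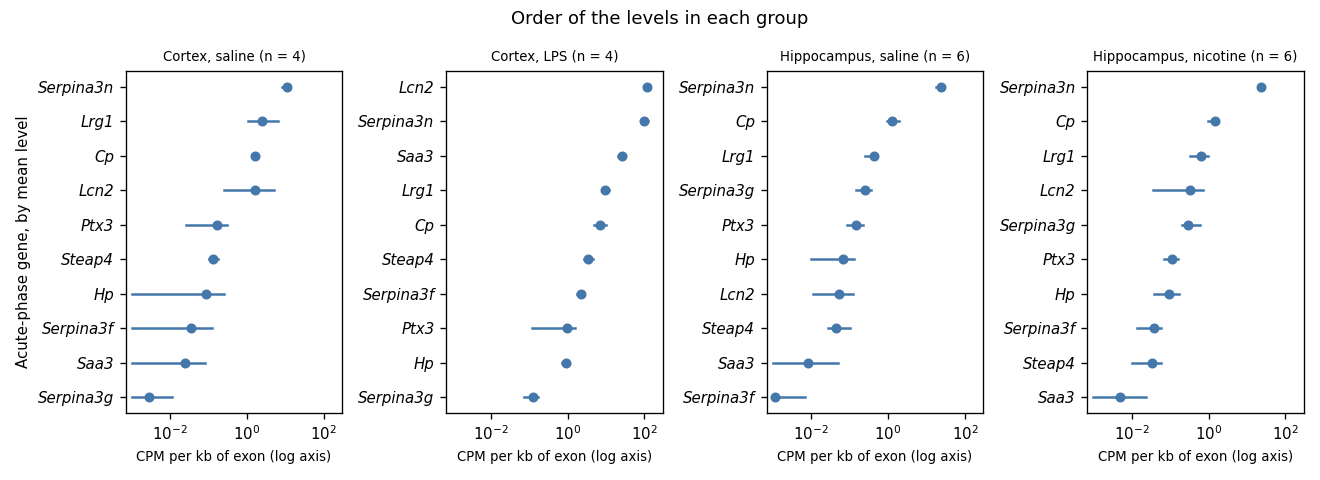
CPM per kilobase of exon on a log axis for each acute-phase gene, ordered by mean within each of the 4 groups; points are means, lines run from the lowest to the highest library, and values of 0 start at 0.001. Serpina3n heads 3 groups and Lcn2 heads the cortical LPS group, at 114 against 100.2 for Serpina3n.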

How the data were processed

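Gene expression was measured as counts per gene in 20 libraries, 8 from prefrontal cortex and 12 from hippocampus, made from TRIzol RNA with a poly(A)-selecting mRNA library kit, per the labels' protocols. The authors deposited raw counts, with 1 table per tissue. The submitters' processing notes name fastp, STAR, featureCounts, DESeq2 and build mm10, without roles or versions, and annotation and strandedness were not given in the sources used here, so reads of overlapping or near-identical genes may be split between them. Of the hippocampal identifiers 51884 matched GENCODE vM21 and 5296 did not (1.14% of counts). No pair of libraries within a group agreed within sampling noise.

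Cortex and hippocampus had separate fits in edgeR 4.0.16 under R 4.3.3 (TMM factors, filterByExpr, quasi-likelihood F-test, Benjamini-Hochberg over all genes tested, threshold 0.05), and the script was tested on simulated data. Members under the filter were compared by exact 2-sided permutation over all genes under it with at least 1 count. Intervals of ratios and limits against 3 counts cover counting error only. Alternatives were DESeq2 1.42.0, limma-voom (limma 3.58.1), RLE factors, no filter or a filter of 1 CPM, each library left out, a replicate block, marker covariates, and other groupings by label. Protein sequences were not used here.

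The members and gene lists were chosen with earlier results of these data known. Beside the 10 members, the rule allowed in each list the 2 smallest p in each direction past the threshold (given here for most lists), receptors and partners of members, and the 5 genes most like Lcn2, Serpina3n, Lrg1 and Cp with a mean of at least 1 CPM, of which 1 is not reported here. Correlations and levels per kilobase without saline library 8, and left-out libraries or unscaled totals for members under the filter, were chosen after seeing the data.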

Additional observations from a re-analysis of the deposited data

Results flagged for a closer look

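Of 40 groups of 4 to 6 libraries (10 members in 4 groups), 11 held 1 library whose gap to its nearest neighbour, relative to the range of its group, exceeded Dixon's 95% limit. Chance flags about 1 group in 20 where values are normally distributed and groups are independent. Many values here rest on few counts and 1 library enters several groups, so the number of flags cannot be set against that rate. In 3 of the 11, all other libraries of the group were at 0 and any count stands out. Cortical saline library 8 accounted for 4 of the 11. It held 13.5 CPM of Lcn2 against 0.676 to 1.39 in the other saline libraries, 8.89 CPM of Lrg1 against 1.45 to 1.62, 0.285 CPM of Serpina3f against 0 to 0.0423, and 0.0238 CPM of Serpina3g, which is 1 count, against 0. Its title and treatment field name LPS. Libraries grouped as LPS by column name held 254 to 367 CPM of Lcn2, 52.9 to 83.6 of Saa3 and 11.1 to 16.8 of Lrg1. Library 8 lay below all 3 ranges, with Saa3 at 0.0238 CPM, and came closest to them in Lrg1. These ranges follow from the grouping and from the members themselves, so they cannot decide which label is right.

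Saa3 in cortical saline library 6 was 0.211 CPM, or 10 counts, against 0 to 0.0256 in the other saline libraries. In hippocampus Saa3 was 0.130 CPM in saline library 2 against 0 in the others, and 0.0602 CPM in nicotine library 2 against 0 to 0.0156. Saline library 2 of hippocampus was also the lowest for Lrg1, at 0.352 CPM against 0.566 to 0.692, and the highest for Steap4, at 0.315 CPM against 0.0854 to 0.146. The single saline count of Serpina3f in hippocampus, 0.0158 CPM, was in library 3. Serpina3g reached 1.22 CPM in nicotine library 2 against 0.420 to 0.547 in the other nicotine libraries. Most of these values rest on few counts, and no cause was tested.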

How the results depend on the processing

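In cortex the count of members called higher was 9, and it was 8 to 10 with every other test, normalization, filter, covariate and left-out library. With the title and treatment field as the group it was 0 members, 0 of all genes, and the log2 fold changes reversed for Lcn2 (-0.089), Saa3 (-0.37), Serpina3n (-0.14), Cp (-0.43), Hp (-0.26) and Steap4 (-0.22), because that grouping mixes libraries of both column names. Ptx3 was lost with limma-voom and without LPS library 4, and a filter of 1 CPM removed it. Leaving out single libraries gave 8 to 9 members and 5703 to 8481 of all genes in cortex. Within-group correlations without saline library 8 were -0.10 for Lcn2 and Lrg1, -0.42 for Lcn2 and Serpina3f, -0.35 for Lrg1 and Serpina3f, and 0.71 for Serpina3f and Hp.

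In hippocampus the count of members stayed at 0. Over all genes DESeq2 called 15 and the fit without libraries above 1000 CPM of Ttr called 1, and leaving out single libraries gave 0 to 1. Left-out libraries turned the sign of Serpina3n, at 0.00324 without saline library 1, 0.00188 without nicotine library 1 and 0.00307 without nicotine library 6, of Serpina3g (-0.13 without nicotine library 2) and of the Saa3 difference (0.0126 CPM without saline library 2). With single libraries left out the values ranged from -0.114 to 0.00324 for Serpina3n, from -0.128 to 0.341 for Serpina3g (log2 fold changes) and from -0.0185 to 0.0126 CPM for Saa3. The cause was not tested.

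The replicate numbers in the titles did not pair the libraries. Deviations of same-numbered libraries correlated at -0.164 to -0.0346 in cortex and -0.170 to 0.438 in hippocampus, and 0 of 8 and 2 of 12 libraries correlated best with their own number. With the number as a replicate block, 8 members and 6064 genes were called in cortex, without Ptx3 (2.29, adjusted p = 0.104 by edgeR), and 0 in hippocampus.

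Depth limits Saa3, Serpina3f, Serpina3g and Hp, which had 0 to 17 counts per saline library in cortex.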
